A study of Mus musculus with 50 samples.

Results

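The Gimap genes encode the GTPases of immunity-associated proteins, a family of GTP-binding proteins made mainly by lymphocytes. The mouse members Gimap1, Gimap3, Gimap4, Gimap5, Gimap6, Gimap7, Gimap8 and Gimap9 were taken by gene name from the deposited count table, which gave 8 of its 56600 gene entries. All 8 passed the filter on low counts that left 18387 genes for testing. The family was singled out with results of these data in view, and it is not recorded which measured values it was selected on; the diet contrasts are treated as those values. The diet values are therefore given as a description, and an adjusted p beside one of them gives its place in a fit across all genes rather than independent support.

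PolyA RNA was sequenced from whole lymph nodes of mice at postnatal day 56 to ask how dietary vitamin A shapes the differences between nodes that drain different parts of the gut. The deficient groups were female C57B6 mice, offspring of C57BL/6J dams fed a diet without vitamin A. The sufficient groups were C57B6 mice, 2 female and 3 male per node, offspring of C57BL/6J dams fed the same ingredients with 20 IU/g of vitamin A restored. In both arms the dams went onto their diet 3 weeks before breeding was set up, and the offspring came from the second and the third litters. Each diet was sampled in the duodenal, jejunal, ileal and colonic nodes, which drain the gut, and in the inguinal node, which drains skin, with 5 libraries per diet and node and 50 in all. Diet was set by the dam, so the effect of the diet and that of dam or litter cannot be told apart, and no label ties nodes to individual mice or says whether nodes were pooled. The p-values then measure only the spread between these libraries.

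Libraries held 5335369 to 8904722 estimated counts (median 7640371). All 18 T cell and all 15 B cell marker genes on fixed lists had counts in each of the 50 libraries. In 10 deficient libraries 1.03% to 1.70% of counts fell on the gene Gm19220, against 5.37% to 9.83% in the other 40 libraries, and 2 duodenal libraries, 1 of each diet, held over 5% pancreatic transcripts. A result whose call changes without these libraries is given with and without them, and the counts of Gimap genes called did not change without the pancreatic ones.

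GIMAP proteins are related in fold to septins and dynamins, and many sit on intracellular membranes such as those of the endoplasmic reticulum, Golgi, lysosomes, mitochondria or lipid droplets. The family is known for setting how long lymphocytes live: loss of Gimap5 in rats and mice depletes naive T cells, and loss of Gimap1 in mice depletes mature T and B cells. Vitamin A acts on the same cells through retinoic acid, a ligand of nuclear receptors that gives lymphocytes in gut-draining nodes their gut homing.

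All 8 genes lay in 1 cluster on chromosome 6, from 48647234 to 48770851 (GRCm38, GENCODE M21), a span of 123.618 kb. In order along the chromosome stood Gimap8, Gimap9, Gimap4, Gimap6, Gimap7, Gimap1, Gimap5 and Gimap3, with Gimap6 and Gimap3 on the minus strand and the rest on the plus strand. The noncoding gene Gimap1os lay on the minus strand from 48738346 to 48741444 and overlapped Gimap1 (48739054 to 48743795). The sequences shown are the promoters of the 3 members with the largest mean decrease on the deficient diet, Gimap7, Gimap4 and Gimap3, and that of Gimap1, which passed the test in no node. They come from RefSeq (GRCm38.p6), run from 250 bases before to 50 bases after the annotated start, and lie at chr6:48718371-48718670 for Gimap7, chr6:48684328-48684627 for Gimap4, chr6:48770802-48771101 for Gimap3 (minus strand) and chr6:48738797-48739096 for Gimap1. Capitals mark matches on either strand to 4 short motifs: AGGTCA, the core of sites bound by retinoic acid receptors, TGTGGT for RUNX factors, AGGAAG for ETS factors and CTTTGA for TCF and LEF factors.
Gimap7: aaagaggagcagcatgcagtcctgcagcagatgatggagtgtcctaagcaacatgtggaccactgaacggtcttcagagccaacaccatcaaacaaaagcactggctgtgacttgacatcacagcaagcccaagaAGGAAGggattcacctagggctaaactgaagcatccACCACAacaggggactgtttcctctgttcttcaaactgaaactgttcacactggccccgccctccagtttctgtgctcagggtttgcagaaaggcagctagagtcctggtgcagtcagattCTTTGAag
Gimap4: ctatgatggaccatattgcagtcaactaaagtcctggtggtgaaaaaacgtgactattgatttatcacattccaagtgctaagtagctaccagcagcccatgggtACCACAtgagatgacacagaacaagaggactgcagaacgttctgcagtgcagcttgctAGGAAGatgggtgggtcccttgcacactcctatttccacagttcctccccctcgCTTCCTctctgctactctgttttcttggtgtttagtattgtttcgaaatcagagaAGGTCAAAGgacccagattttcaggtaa
Gimap3: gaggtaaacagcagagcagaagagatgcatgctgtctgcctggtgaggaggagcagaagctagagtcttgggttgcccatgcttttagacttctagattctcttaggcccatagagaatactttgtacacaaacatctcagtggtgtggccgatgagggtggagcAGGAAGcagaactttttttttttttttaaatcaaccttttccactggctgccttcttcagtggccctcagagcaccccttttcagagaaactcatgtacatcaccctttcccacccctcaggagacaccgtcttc
Gimap1: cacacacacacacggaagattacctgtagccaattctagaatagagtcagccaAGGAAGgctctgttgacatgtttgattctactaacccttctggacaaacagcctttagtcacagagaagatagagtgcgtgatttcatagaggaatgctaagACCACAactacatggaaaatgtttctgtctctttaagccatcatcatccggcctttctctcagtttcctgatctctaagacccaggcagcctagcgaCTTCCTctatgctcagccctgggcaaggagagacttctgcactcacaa

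AGGTCA occurred in the promoter of 1 of the 8 genes, Gimap4, where it overlapped a match to CTTTGA on the other strand, and in 16.3% of all 32851 promoters of the same length. The Gimap7 promoter held the RUNX, ETS and TCF and LEF motifs 1 time each, and the Gimap3 promoter held only the ETS motif. The Gimap1 promoter held the RUNX motif 1 time and the ETS motif at 2 places. AGGAAG was found in a promoter of 7 of the 8 genes and in 35.4% of all promoters, TGTGGT in 3 of the 8 and 16.8%, and CTTTGA in 2 of the 8 and 16.0%. Gimap8 had 2 promoters, so the 8 genes had 9, and of these 2 only the second held a match, 1 to AGGAAG. The Gimap6 promoter held none of these letters. These matches are a description of the windows shown and no evidence of binding.

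The members spanned a wide range of levels. Set per kilobase of the longest annotated transcript, Gimap3 was the highest on both diets, at 184 ± 13.3 CPM per kb (counts scaled to the library size, per kilobase) in deficient nodes and 274 ± 22.5 in sufficient nodes (SD, n = 25 libraries each). Gimap4 followed with 135 ± 9.42 in deficient and 202 ± 15.0 in sufficient nodes, and Gimap1 with 129 ± 10.4 in deficient and 146 ± 15.8 in sufficient nodes. Gimap4 and Gimap1 did not differ beyond their spread in deficient nodes, where they were neighbours in the order. Gimap6, Gimap8, Gimap9 and Gimap5 came next on both diets, in that order. Gimap7 was the lowest in deficient nodes, at 12.1 ± 1.56 CPM per kb. It overlapped in range of error with Gimap5 in sufficient nodes, at 36.1 ± 5.29 for Gimap7 and 34.9 ± 4.36 for Gimap5. For Gimap1 and Gimap5 the longest transcript had 1 exon, so their place in this order may depend on the transcript used for length.

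Gimap7 showed the largest diet effect of the family. The human protein has been shown to stimulate GTP hydrolysis by other family members and to sit on lipid droplets. In duodenal nodes the 5 deficient libraries had 17.2, 15.7, 14.2, 15.2 and 17.3 CPM (normalised by trimmed mean of M-values), and the 5 sufficient libraries had 44.2, 48.4, 52.2, 56.9 and 57.4 CPM. Jejunal nodes had 16.8, 11.2, 13.8, 16.6 and 14.4 CPM on the deficient diet and 42.2, 40.1, 51.9, 52.2 and 51.8 CPM on the sufficient diet. The highest deficient library of either node lay well below the lowest sufficient library of that node. In ileal nodes the values were 11.3, 18.3, 16.1, 20.1 and 14.6 CPM on the deficient diet and 43.5, 40.7, 49.99, 42.9 and 53.3 CPM on the sufficient diet. Colonic nodes gave 15.5, 15.6, 15.6, 15.1 and 14.5 CPM on the deficient diet, the tightest of the 10 groups, and 39.5, 43.6, 45.5, 50.04 and 52.2 CPM on the sufficient diet. Inguinal nodes gave 13.2, 14.3, 16.4, 16.7 and 13.5 CPM on the deficient diet and 35.3, 33.4, 41.2, 37.4 and 39.3 CPM on the sufficient diet. The diets did not overlap in any node, and across all 50 libraries the deficient values ran from 11.2 to 20.1 CPM and the sufficient values from 33.4 to 57.4 CPM. All deficient libraries lay below all sufficient libraries for 2.96% of the tested genes in duodenal, 2.71% in jejunal, 3.08% in ileal, 1.9% in colonic and 0.974% in inguinal nodes.

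**Figure D1:**
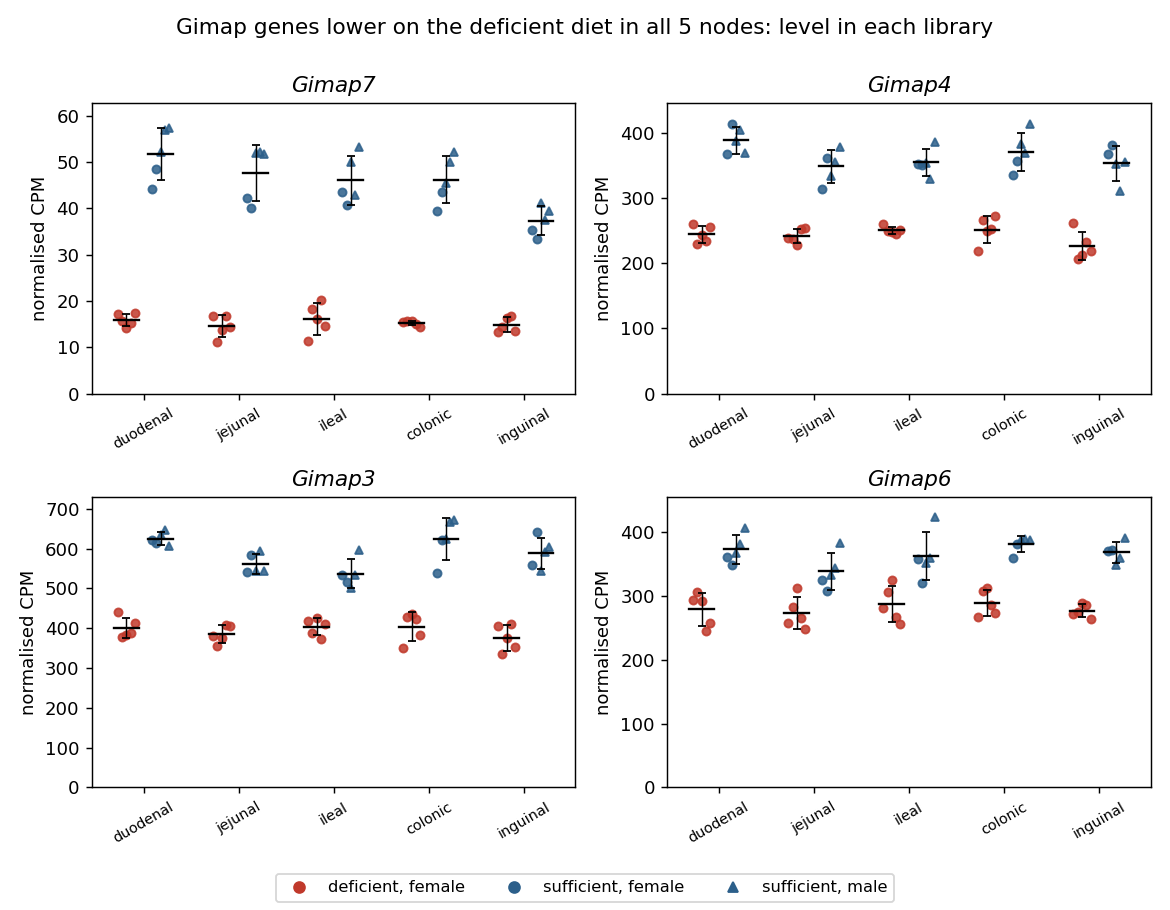
Normalised CPM (y axis) of Gimap7, Gimap4, Gimap3 and Gimap6 in each of the 50 libraries, by node (x axis). Red points are deficient libraries, blue circles sufficient female and blue triangles sufficient male libraries; black lines give the mean and SD of each group of 5. For Gimap7 every deficient library, at 20.1 CPM or less, lies below every sufficient library, at 33.4 CPM or more.

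The quasi-likelihood test of edgeR, fitted to all genes with a sex term and adjusted by Benjamini-Hochberg, called 5 of the 8 Gimap genes in duodenal nodes at an adjusted p under 0.05, all of them lower on the deficient diet, where 10.1% of all tested genes passed, 6.19% higher and 3.95% lower. In jejunal nodes 4 of the 8 were called, all lower (4.55% of all genes called, 2.75% higher and 1.8% lower). In ileal nodes 4 were called, all lower (5.7% called, 2.74% higher and 2.96% lower). In colonic nodes 4 were called, all lower (2.22% called, 1.28% higher and 0.946% lower). In inguinal nodes 5 were called, all lower (0.838% called, 0.538% higher and 0.299% lower). No Gimap gene was called higher in any node by edgeR, or was higher at an unadjusted p under 0.05. At that p, 5 of the 8 were lower in duodenal, 5 in jejunal, 5 in ileal, 8 in colonic and 6 in inguinal nodes. In colonic nodes these included Gimap1, Gimap5 and Gimap9, whose adjusted p did not pass. The median log2 fold change of the 8 genes, deficient over sufficient, was -0.43 in duodenal, -0.24 in jejunal, -0.25 in ileal, -0.31 in colonic and -0.39 in inguinal nodes, while the median over all tested genes stayed between -0.0035 and 0.0156. Because the diet contrasts may have drawn attention to the family, nothing is read from these counts against their backgrounds.

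For Gimap7 the log2 fold change was -1.54 ± 0.11 in duodenal, -1.55 ± 0.11 in jejunal, -1.37 ± 0.10 in ileal, -1.44 ± 0.11 in colonic and -1.18 ± 0.10 in inguinal nodes (± SE of the edgeR fit, n = 5 libraries a group). The mean deficient level was 0.308, 0.306, 0.349, 0.33 and 0.397 times the sufficient mean in these nodes. These ratios, unlike the fold changes, were not adjusted for sex. The edgeR adjusted p of Gimap7 ran from 1.80e-14 in duodenal to 1.85e-10 in inguinal nodes. Among the 18387 genes, Gimap7 had the smallest p in jejunal, ileal and colonic nodes and the second smallest in duodenal and inguinal nodes. With male libraries left out, which left 2 sufficient libraries a node, the log2 fold change was -1.54 in duodenal, -1.50 in jejunal, -1.39 in ileal, -1.44 in colonic and -1.21 in inguinal nodes. In the deficient nodes, libraries with low Gm19220 averaged 15.2 ± 1.45 CPM of Gimap7 (SD, n = 10) and the other deficient libraries 15.4 ± 2.32 CPM (SD, n = 15).

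Gimap3 and Gimap5 form a pair of close paralogues; mouse Gimap3 is known for effects on T cell survival, and its human counterpart is a pseudogene. In duodenal nodes Gimap3 had 440.3, 378, 384, 388 and 414 CPM on the deficient diet and 622, 614, 633, 647 and 607 CPM on the sufficient diet. In inguinal nodes it had 406, 334, 375, 410.4 and 353 CPM on the deficient diet and 558, 642, 545, 591 and 604 CPM on the sufficient diet. The diets stood apart in these nodes, and they did so in the other nodes as well. Gimap3 had 356 to 409 CPM in deficient and 541 to 594 CPM in sufficient jejunal nodes. It had 374 to 426 CPM in deficient and 502 to 597 CPM in sufficient ileal nodes. Colonic nodes had 349 to 437 CPM on the deficient and 539.6 to 672 CPM on the sufficient diet. Gimap3 was called lower in all 5 nodes, with log2 fold changes of -0.62 ± 0.07 in duodenal, -0.52 ± 0.07 in jejunal, -0.39 ± 0.07 in ileal, -0.60 ± 0.07 in colonic and -0.62 ± 0.07 in inguinal nodes (± SE). The edgeR adjusted p of Gimap3 was smallest in duodenal nodes, at 6.93e-08, and largest in ileal nodes, at 0.000383. Fitted to the 10 libraries of a node alone, Gimap3 missed the threshold in ileal (adjusted p = 0.15) and colonic nodes (adjusted p = 0.126).

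Gimap5, which keeps naive T cells alive and is known in mice to restrain the kinase Gsk3b, moved less. It averaged 70.2 ± 8.51 CPM in deficient and 82.2 ± 7.58 CPM in sufficient duodenal nodes (SD, n = 5 each). In inguinal nodes it averaged 70.9 ± 6.47 CPM on the deficient and 80.8 ± 10.2 CPM on the sufficient diet (SD, n = 5 each). The diets overlapped in every node but the colonic, where Gimap5 had 76.5, 68.2, 76.2, 69.2 and 71.7 CPM on the deficient and 85.5, 79.0, 83.7, 79.9 and 113 CPM on the sufficient diet. All deficient colonic libraries lay below all sufficient ones, as did those of 1.9% of all tested genes in that node. Gimap5 passed the test in no node, with a log2 fold change from -0.26 ± 0.11 in colonic to -0.07 ± 0.11 in ileal nodes (± SE). Transcripts of Gimap5 shared 8.02% of their 31-base words with Gimap3, and those of Gimap3 shared 13.2% of theirs with Gimap5 (GENCODE M21), so reads from the shared stretches could have been divided between the 2 genes by the authors' quantification.

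Gimap4, whose product speeds the death of T cells in mice, was likewise called lower in all 5 nodes. In colonic nodes it had 219, 266, 249, 252 and 272 CPM on the deficient diet and 336, 357, 383, 370.0 and 414 CPM on the sufficient diet. In inguinal nodes it had 262, 207, 213, 233 and 219 CPM on the deficient diet and 368, 382, 352, 311 and 356 CPM on the sufficient diet. The highest deficient library lay below the lowest sufficient library in both nodes. The same held in duodenal nodes (230.0 to 260.2 CPM in deficient, 368 to 414 CPM in sufficient), in jejunal nodes (229 to 254 CPM in deficient, 314 to 379 CPM in sufficient) and in ileal nodes (246 to 260.0 CPM in deficient, 330.0 to 387 CPM in sufficient). Its log2 fold change was -0.66 ± 0.07 in duodenal, -0.51 ± 0.07 in jejunal, -0.49 ± 0.07 in ileal, -0.55 ± 0.07 in colonic and -0.63 ± 0.07 in inguinal nodes (± SE), with edgeR adjusted p between 1.06e-08 (duodenal) and 9.17e-06 (ileal). Gimap4 transcripts shared no 31-base word with any other gene. In colonic nodes the adjusted p of Gimap4 was 0.158 when the 10 libraries of that node were fitted alone.

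Gimap6 binds the autophagy protein Gabarapl2 and takes part in autophagy in lymphocytes. Duodenal nodes had 295, 306, 292, 246 and 257 CPM of Gimap6 on the deficient diet and 361, 349, 367, 382 and 407 CPM on the sufficient diet. Jejunal nodes had 259, 284, 313, 266 and 248 CPM on the deficient diet and 326, 307, 333, 344 and 384 CPM on the sufficient diet. The diets stood apart in duodenal, colonic and inguinal nodes, and overlapped in jejunal and ileal nodes, where the highest deficient library, replicate 3 in either node, exceeded the lowest sufficient library. The log2 fold change of Gimap6 was -0.36 ± 0.08 in duodenal, -0.25 ± 0.08 in jejunal, -0.28 ± 0.08 in ileal, -0.34 ± 0.08 in colonic and -0.35 ± 0.08 in inguinal nodes (± SE). All 5 were called, the jejunal value at an edgeR adjusted p of 0.0476. The jejunal call was the least stable: it was lost when the libraries of any replicate number were left out except deficient number 3, with adjusted p from 0.0595 to 0.154. The ileal call was lost without deficient number 1, 4 or 5 or sufficient number 1 (adjusted p from 0.0536 to 0.106), the colonic call without sufficient number 1 (adjusted p = 0.053) and the inguinal call without sufficient number 1 or 2 (adjusted p = 0.123 and 0.0561). Fitted to the 10 libraries of a node alone, Gimap6 was called in no node (adjusted p from 0.112 to 0.499). Without male libraries Gimap6 was called only in duodenal nodes (adjusted p = 0.0374), and in inguinal nodes its adjusted p was 0.149 without the libraries of low Gm19220. Among deficient libraries those with low Gm19220 had 296 ± 20.2 CPM of Gimap6 (SD, n = 10) and the others 272 ± 17.4 CPM (SD, n = 15).

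Gimap8, which carries several GTPase domains in a single chain, passed the test in duodenal and inguinal nodes. In duodenal nodes it had 184, 202, 218, 154 and 201 CPM on the deficient diet and 238, 271, 231, 262 and 243 CPM on the sufficient diet, with no overlap. In inguinal nodes it had 223, 189, 184, 197 and 249 CPM on the deficient diet and 312, 276, 229, 233 and 248 CPM on the sufficient diet, and the highest deficient library lay inside the sufficient range. The log2 fold change was -0.50 ± 0.10 in duodenal (edgeR adjusted p = 0.000365) and -0.43 ± 0.09 in inguinal nodes (edgeR adjusted p = 0.0127). Jejunal, ileal and colonic values were -0.23 ± 0.09, -0.22 ± 0.09 and -0.29 ± 0.10 (± SE) and did not pass. The inguinal call of Gimap8 was lost without deficient number 2 (adjusted p = 0.0605), without sufficient number 1 (adjusted p = 0.144), without male libraries (adjusted p = 0.0832), without the sex term (adjusted p = 0.17) and without the libraries of low Gm19220 (adjusted p = 0.175). Without deficient number 5, Gimap8 also passed in colonic nodes (adjusted p = 0.0221), and the duodenal call was lost without male libraries (adjusted p = 0.0624). Both calls were lost when the 10 libraries of the node were fitted alone (adjusted p = 0.153 in duodenal and 0.173 in inguinal nodes).

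Gimap1, needed in mice for mature T and B cells, and Gimap9, whose role is less well described, passed in no node. Gimap1 averaged 210.1 ± 20.2 CPM in deficient and 253 ± 27.7 CPM in sufficient colonic nodes, where its difference was largest (SD, n = 5 each). Its log2 fold change, which is adjusted for sex, ran from -0.16 ± 0.08 in colonic to 0.02 ± 0.08 in jejunal nodes (± SE). Gimap9 averaged 57.5 ± 4.86 CPM in deficient and 73.6 ± 11.1 CPM in sufficient colonic nodes (SD, n = 5 each), with log2 fold changes between -0.24 ± 0.11 in colonic and -0.12 ± 0.11 in jejunal nodes (± SE). The diets overlapped in every node for both genes. Of the 31-base words of Gimap1, 33.9% were shared with its antisense neighbour Gimap1os, and the sources used here do not say whether the libraries kept strand, so reads of the 2 genes cannot be told apart there.

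**Figure D2:**
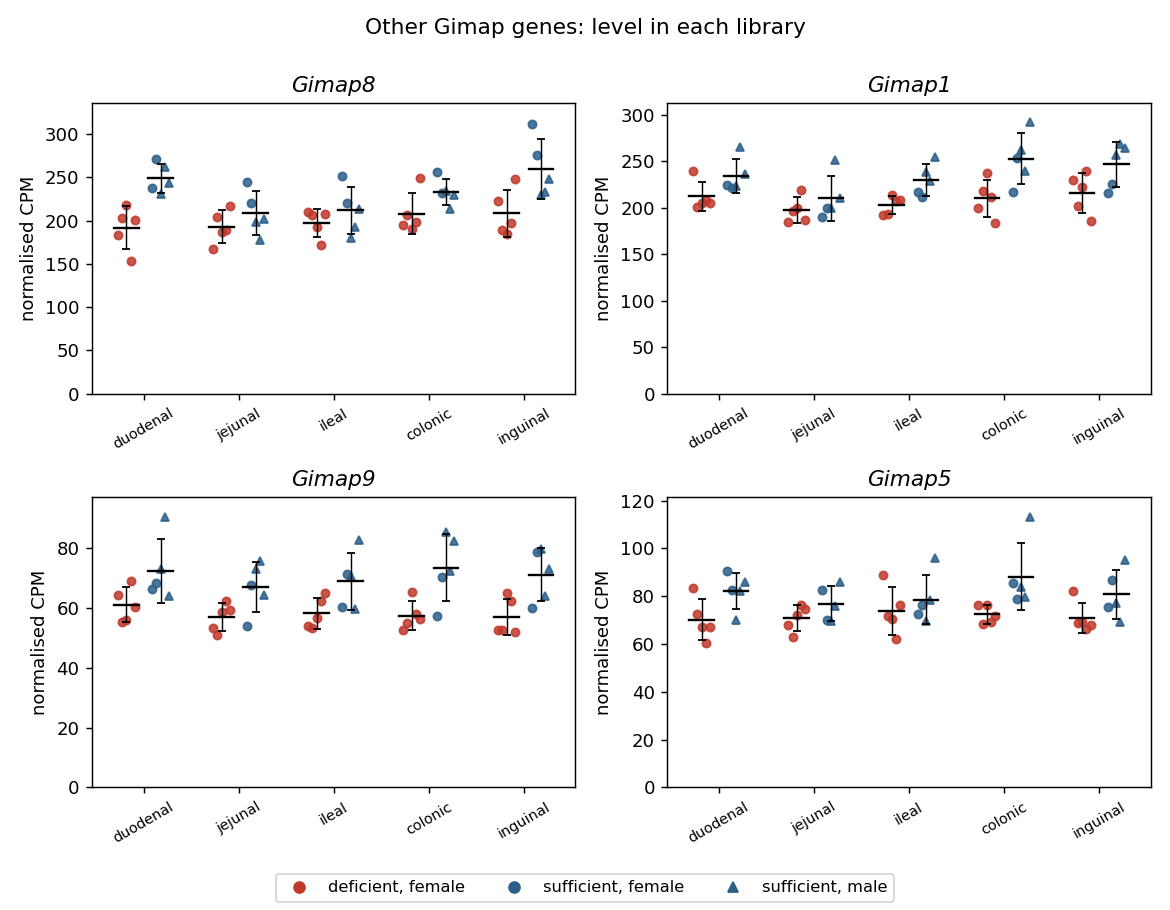
Normalised CPM (y axis) of Gimap8, Gimap1, Gimap9 and Gimap5 in each of the 50 libraries, by node (x axis). Red points are deficient libraries, blue circles sufficient female and blue triangles sufficient male libraries; black lines give the mean and SD of each group of 5. The diets overlap in most panels; the exceptions are Gimap8 in duodenal and Gimap5 in colonic nodes.

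Few genes were lower in every node. Of the 18387 tested genes, 17 (0.0925%) were called lower on the deficient diet in all 5 nodes. Of these, 4 were Gimap7, Gimap4, Gimap3 and Gimap6, the last with a jejunal call that held in 10 of 22 alternatives. Of the 17, these 4 lay on chromosome 6, which carried 1070 tested genes, 12 lay on other chromosomes, and Gm57204 was not placed by the annotation used. Because the diet contrasts may have drawn attention to the family, nothing is read from these counts against their backgrounds either. By mean log2 fold change over the nodes, Gimap7 (-1.42) came after Art2b (-2.64), Art2a (-2.07) and Gm57204 (-1.63) among the 17, while Gimap4 (-0.57), Gimap3 (-0.55) and Gimap6 (-0.32) came last.

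**Figure D3:**
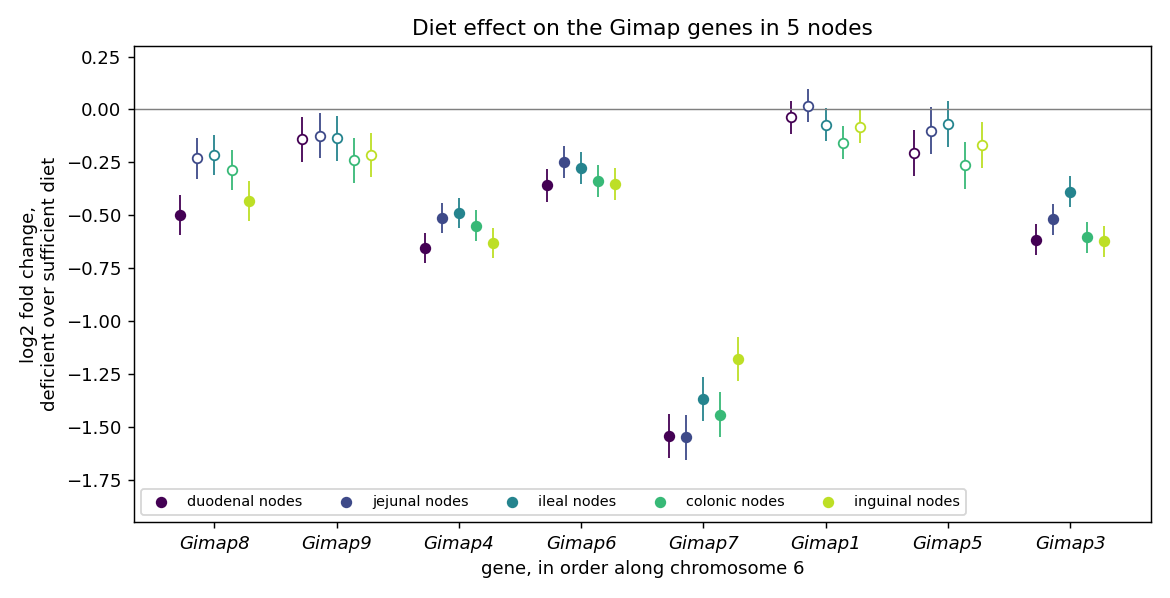
Log2 fold change of each Gimap gene, deficient over sufficient diet (y axis), with genes in their order along chromosome 6 (x axis). Points are the 5 nodes, filled where the edgeR test passed and open where it did not, and bars are the SE of the fit; Gimap7 lies between -1.55 and -1.18 in all nodes, Gimap4 and Gimap3 between -0.66 and -0.39.

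Within 250 kb of the cluster, 17 other genes were tested, and few of them passed. Gimap1os was called lower in duodenal (log2 fold change -0.38 ± 0.12, edgeR adjusted p = 0.0407) and ileal nodes (-0.42 ± 0.12, edgeR adjusted p = 0.0326), and was -0.40 ± 0.12 in inguinal nodes without passing (edgeR adjusted p = 0.115). It averaged 24.6 ± 2.33 CPM in deficient and 34.2 ± 3.54 CPM in sufficient duodenal nodes (SD, n = 5 each). Beyond the cluster, Rarres2, which encodes the chemoattractant chemerin, was lower in jejunal nodes (-0.55 ± 0.16, edgeR adjusted p = 0.0434), Tmem176b in ileal nodes (-0.40 ± 0.11, edgeR adjusted p = 0.0196) and Sspo in colonic nodes (-0.76 ± 0.20, edgeR adjusted p = 0.0295). By edgeR none of the 17 was called higher in any node, with 3 in duodenal, 3 in jejunal, 1 in colonic and 1 in inguinal nodes higher at an unadjusted p under 0.05, and none was called in inguinal nodes, with 2 lower at that p. Gm28053, an annotated read-through locus that spans Gimap7 to Gimap5, averaged 5.27 ± 2.25 CPM in deficient and 3.23 ± 0.922 CPM in sufficient duodenal nodes (SD, n = 5 each) and was not called. Gimap7 shared 2.2% of its 31-base words with Gm28053 and with no other gene.

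**Figure D4:**
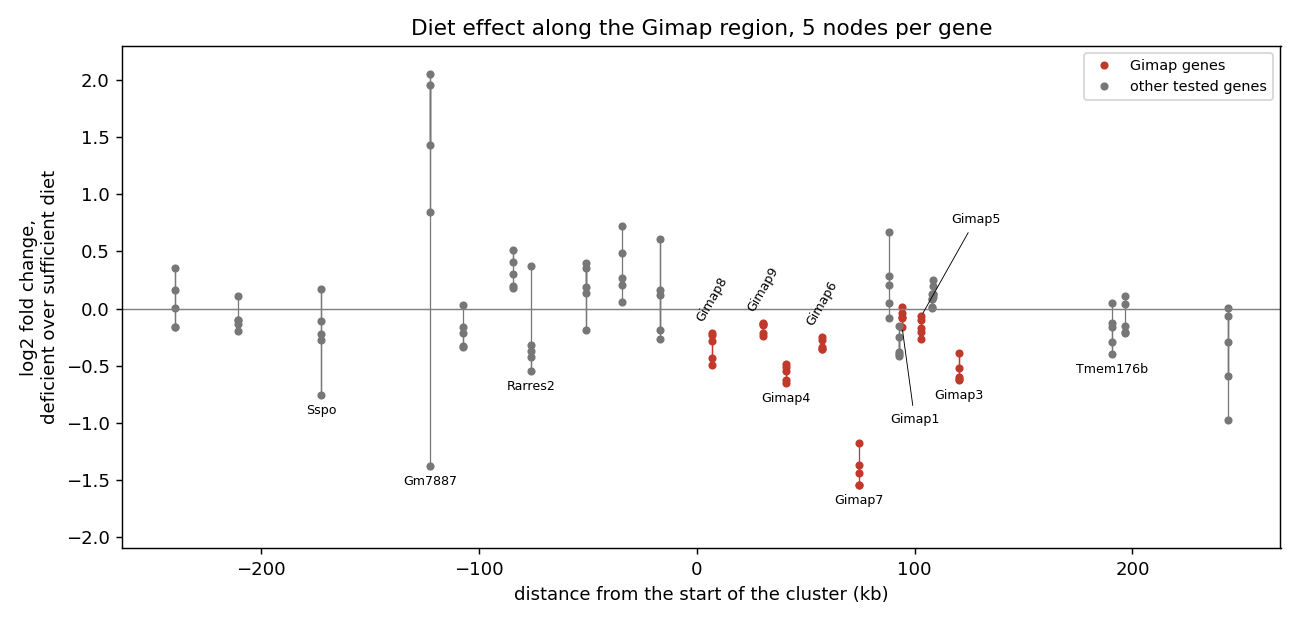
Log2 fold change, deficient over sufficient diet (y axis), against the distance of each tested gene from the start of the Gimap cluster in kb (x axis); the 5 points of a gene are the 5 nodes. Red genes are the 8 Gimap members, grey genes the 17 other tested genes within 250 kb; Gm7887, a pseudogene with few counts, spans both directions and was called in no node.

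The diet effects on the Gimap genes were set beside markers of the cells that make them. The summed level of the 18 T cell genes averaged 2929 ± 237 CPM in deficient and 2851 ± 405 CPM in sufficient libraries (SD, n = 25 each), and ranged from 2439 to 3297 CPM in deficient and from 2097 to 3664 CPM in sufficient libraries. Its mean was lower on the deficient diet only in inguinal nodes, at 2841 ± 304 against 3368 ± 208 CPM (SD, n = 5 each). The largest difference the other way was in ileal nodes, at 2898 ± 212 CPM in deficient against 2328 ± 233 CPM in sufficient nodes (SD, n = 5 each). None of the T cell genes was at 0 in any library. In duodenal, jejunal and colonic nodes edgeR called 0 of the 18 T cell genes, where 5, 4 and 4 Gimap genes were called lower. At an unadjusted p under 0.05 the T cell genes numbered 2 higher and 1 lower in duodenal, 5 higher and 0 lower in jejunal, and 1 higher and 0 lower in colonic nodes. In ileal nodes 9 of the 18 were called higher, among them Trac (log2 fold change 0.52 ± 0.11), Cd3e (0.59 ± 0.12) and Cd8a (0.47 ± 0.12). In inguinal nodes 2 of the 18 were called lower and 0 higher, among them the costimulatory receptor Cd28 (-0.52 ± 0.10), and the median of the 18 genes was -0.23. At an unadjusted p under 0.05, 8 of the 18 were lower there. In a whole node, fewer cells of a type and less RNA per cell cannot be told apart.

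Genes of naive T cells, the cells in which the family is best known, moved in both directions on the deficient diet. Of 12 such genes, 4 were called higher and 0 lower in duodenal nodes, 4 higher and 0 lower in jejunal, 5 higher and 1 lower in ileal, and 1 higher and 0 lower in colonic nodes. The transcription factors Klf2 (log2 fold change 0.48 ± 0.12) and Tcf7 (0.54 ± 0.14) and the interleukin 7 receptor Il7r (0.46 ± 0.15) were higher in duodenal nodes, with Dapl1 (0.82 ± 0.23). Il7r was the gene called in colonic nodes (0.61 ± 0.15) and reached 1.14 ± 0.15 in ileal nodes, where Igfbp4 (-0.58 ± 0.11), a binding protein of insulin-like growth factors, was the one called lower. At an unadjusted p under 0.05, 4 of the 12 were higher and 1 lower in duodenal, 5 higher and 2 lower in jejunal, 6 higher and 2 lower in ileal, and 3 higher and 2 lower in colonic nodes. The transcription factor Lef1 was -0.32 ± 0.13 in duodenal, -0.26 ± 0.13 in jejunal and -0.36 ± 0.13 in colonic nodes, and Igfbp4 was -0.26 ± 0.11 in jejunal and -0.26 ± 0.11 in colonic nodes, none of which passed. In inguinal nodes edgeR called 0 of the 12 higher, also at an unadjusted p under 0.05, and 1 lower, Lef1 (-0.79 ± 0.13), with 3 lower at an unadjusted p under 0.05. Of 15 B cell genes, 6 were higher and 0 lower in duodenal nodes, 3 higher and 0 lower in jejunal, 1 higher and 2 lower in ileal, and 0 were called in colonic and inguinal nodes, with 4 and 6 of them higher at an unadjusted p under 0.05. The B cell genes lower in ileal nodes were the kinase Blk (-0.35 ± 0.10) and the complement receptor Cr2 (-0.47 ± 0.15).

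Some members are also known from human endothelial cells, and blood endothelial markers were counted for that reason. Of 12 such genes, 3 were lower in duodenal, 2 in jejunal and 4 in ileal nodes, with 0 called by edgeR in colonic nodes (2 lower at an unadjusted p under 0.05) and 0 in inguinal nodes (2 higher at an unadjusted p under 0.05). In duodenal nodes these were Emcn (-0.87 ± 0.20), Kdr (-0.47 ± 0.14) and Tek (-0.52 ± 0.17), while Eng (0.48 ± 0.17), Cldn5 (0.40 ± 0.24) and Cdh5 (0.23 ± 0.17) had positive values that did not pass. The summed level of the 12 was 924 ± 86.0 CPM in deficient and 912 ± 120.2 CPM in sufficient duodenal nodes, and 1219 ± 130.3 CPM in deficient and 1467 ± 133 CPM in sufficient ileal nodes (SD, n = 5 each). In inguinal nodes it was 960.4 ± 50.8 CPM on the deficient and 833 ± 28.8 CPM on the sufficient diet (SD, n = 5 each). Over all nodes it averaged 1037 ± 159 CPM in deficient and 1058 ± 261 CPM in sufficient libraries (SD, n = 25 each), in ranges of 752 to 1396 CPM in deficient and 783 to 1604 CPM in sufficient libraries. None of these markers was at 0 in any library, and their part in the Gimap values was not tested.

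**Figure D5:**
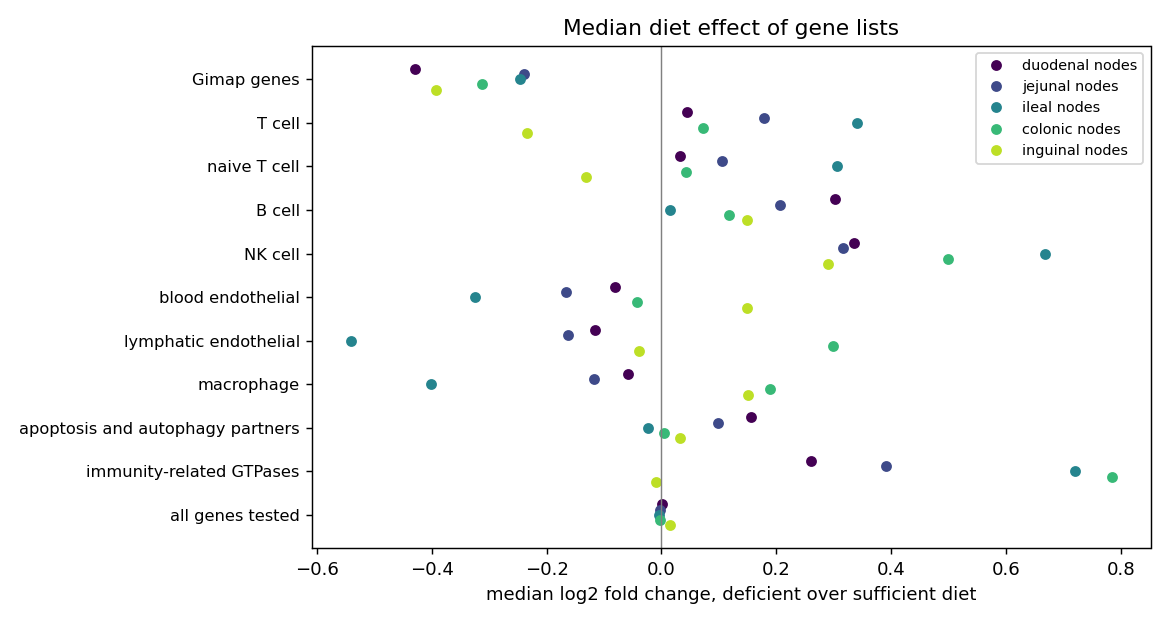
Median log2 fold change, deficient over sufficient diet (x axis), of the Gimap genes, of fixed gene lists and of all genes tested (y axis); each point is the median over a list in 1 of the 5 nodes. The Gimap medians lie between -0.43 and -0.24, while the T cell medians lie between -0.23 in inguinal and 0.34 in ileal nodes. Negative medians are not particular to the Gimap genes. In ileal nodes the lymphatic endothelial, macrophage and blood endothelial medians lie below the Gimap median.

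Genes of apoptosis and autophagy, processes in which Gimap proteins are known to take part, were mostly not called. Of 13 apoptosis and autophagy genes, 2 were higher in duodenal nodes, the pro-apoptotic Bbc3 (log2 fold change 1.11 ± 0.21, edgeR adjusted p = 0.000383) and the transcription factor Foxo1 (0.26 ± 0.06, edgeR adjusted p = 0.00521). The same 2 genes were higher in jejunal nodes, Bbc3 alone in ileal nodes (1.19 ± 0.21, edgeR adjusted p = 0.000186), and none was lower in any node by edgeR, with 3 lower in duodenal nodes at an unadjusted p under 0.05. Higher at that p without being called were Bad (0.50 ± 0.19), Bcl2l1 (0.34 ± 0.14), Bax (0.28 ± 0.13) and Bak1 (0.25 ± 0.11) in duodenal nodes. The same held for Bcl2l1 and Foxo1 in ileal, Bbc3 and Bcl2l1 in colonic, and Bcl2l1 in inguinal nodes. Of the 6 immunity-related GTPases, another GTPase family, induced by interferon and active against intracellular microbes, 4 were higher in ileal and the same number in colonic nodes: Igtp, Irgm1, Tgtp1 and Tgtp2, by 0.63 to 0.94 in ileal and 0.75 to 0.92 in colonic nodes on the log2 scale. By edgeR none of the 6 was called in duodenal, jejunal or inguinal nodes, with 1, 1 and 0 at an unadjusted p under 0.05.

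Nodes were then compared within each diet. On the sufficient diet, gut-draining nodes differed from inguinal nodes in 2 of the 8 genes, against 16.9% of all genes (9.69% higher, 7.22% lower). Gimap7 was higher in gut-draining nodes, by a log2 difference of 0.36 ± 0.08 (edgeR adjusted p = 0.000629): it averaged 51.8 ± 5.61 CPM in duodenal, 47.6 ± 5.97 in jejunal, 46.1 ± 5.29 in ileal and 46.2 ± 5.08 in colonic nodes, against 37.3 ± 3.13 CPM in inguinal nodes (SD, n = 5 each). Gimap8 was lower in gut-draining nodes (-0.20 ± 0.07, edgeR adjusted p = 0.0361). Of the 18 T cell genes 12 were lower in gut-draining nodes in this comparison and 0 higher. The Gimap8 call was lost without sufficient number 1, 2, 4 or 5 (adjusted p from 0.0587 to 0.169), and neither gene was called without male libraries (adjusted p = 0.199 for Gimap7 and 0.189 for Gimap8).

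On the deficient diet 0 of the 8 genes differed between gut-draining and inguinal nodes by edgeR, where 5.71% of all genes did (3.71% higher, 2% lower), with 1, Gimap4, at an unadjusted p under 0.05. Without deficient number 1, Gimap4 passed (log2 difference 0.19, adjusted p = 0.047). Gimap7 averaged 15.9 ± 1.34 CPM in duodenal, 14.6 ± 2.31 in jejunal, 16.1 ± 3.38 in ileal and 15.2 ± 0.478 in colonic nodes, against 14.8 ± 1.62 CPM in inguinal nodes (SD, n = 5 each), a log2 difference of 0.06 ± 0.08. The diet effect on Gimap7 in gut-draining nodes minus that in inguinal nodes was -0.30 ± 0.11 on the log2 scale (± SE), which did not pass (edgeR adjusted p = 0.239). None of the 8 passed in this interaction by edgeR, in which 0.919% of all genes were called (0.397% higher, 0.522% lower), and Gimap7 alone had an unadjusted p under 0.05.

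Small intestinal nodes, taken as the mean of duodenal, jejunal and ileal, differed from colonic nodes in 0 of the 8 genes on the sufficient diet by edgeR (3.83% of all genes called, 2.65% higher and 1.19% lower), with 2 at an unadjusted p under 0.05, and in 0 of the 8 on the deficient diet (1.77% called, 1.27% higher and 0.495% lower), with 0 at an unadjusted p under 0.05. Gimap1 came closest on the sufficient diet (-0.17 ± 0.06, edgeR adjusted p = 0.107) and passed without sufficient number 4 (adjusted p = 0.045). The diet effects in small intestinal and colonic nodes did not differ for any of the 8 genes by edgeR (0.0816% of all genes called, all of them higher), with 0 at an unadjusted p under 0.05.

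Duodenal and ileal nodes differed in 1 of the 8 genes on the sufficient diet, against 8.07% of all genes (3.05% higher and 5.03% lower in duodenal nodes). This was Gimap3, which averaged 624 ± 16.0 CPM in duodenal and 537 ± 36.2 CPM in ileal nodes (SD, n = 5 each), a log2 difference of 0.22 ± 0.07 (edgeR adjusted p = 0.0378). Of the 18 T cell genes, 12 were higher in duodenal nodes in this comparison and 0 lower. The Gimap3 call was lost without sufficient number 1, 2, 3 or 4 (adjusted p from 0.09997 to 0.179). On the deficient diet 0 of the 8 differed by edgeR (5.6% of all genes called, 2.9% higher and 2.7% lower), with 0 at an unadjusted p under 0.05. Gimap3 averaged 401 ± 25.8 CPM in deficient duodenal and 403 ± 21.4 CPM in deficient ileal nodes (SD, n = 5 each). The diet effects in duodenal and ileal nodes did not pass the test of the difference for any of the 8 by edgeR (0.223% of all genes called, 0.185% higher and 0.0381% lower), with Gimap3 and Gimap8 at an unadjusted p under 0.05. Their edgeR adjusted p was 0.394 for Gimap3 and 0.414 for Gimap8.

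Sex could be compared on the sufficient diet alone, where it followed the replicate number at every node, so the effects of sex and number cannot be told apart. If the numbers mark mice, the fit counts nodes of the same mouse as independent libraries. With that limit, 4 of the 8 genes were called, where 26.3% of all genes were (13.6% higher, 12.6% lower in males). Gimap7 averaged 48.9 ± 6.19 CPM in male (SD, n = 15) and 41.1 ± 4.40 CPM in female libraries (SD, n = 10), a log2 difference, male minus female, of 0.25 ± 0.06 (edgeR adjusted p = 0.00241). Gimap1 (0.18 ± 0.05, edgeR adjusted p = 0.00462) and Gimap9 (0.18 ± 0.06, edgeR adjusted p = 0.0360) were also higher in males. Gimap8 was lower in males, with 219 ± 24.9 CPM in male (SD, n = 15) and 252 ± 28.3 CPM in female libraries (SD, n = 10), a log2 difference of -0.20 ± 0.06 (edgeR adjusted p = 0.00685). All 4 calls were lost without the libraries of sufficient number 1, 1 of the 2 females at each node (adjusted p = 0.0753 for Gimap7, 0.165 for Gimap1, 0.797 for Gimap9 and 0.158 for Gimap8), and the Gimap9 call also without sufficient number 3 (adjusted p = 0.126) or 5 (adjusted p = 0.0606) or deficient number 2 (adjusted p = 0.0531), and without the libraries of low Gm19220 (adjusted p = 0.0639). The Gimap9 call was also lost with no filter on low counts (adjusted p = 0.103), with a filter of at least 1 CPM in at least 5 libraries (adjusted p = 0.0534), when only the sufficient libraries were fitted (adjusted p = 0.0820) and with the replicate block (adjusted p = 0.101), so that it held in 11 of 20 alternatives. Sex was uneven between the diets, and the deficient females had 15.3 ± 1.98 CPM of Gimap7 (SD, n = 25), below both sexes on the sufficient diet.

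The members moved together to different degrees. Across the 50 libraries the log2 CPM of Gimap3 and Gimap4 had Pearson r = 0.961, and after subtracting each diet and node mean r = 0.618. Gimap4 and Gimap7 had r = 0.934 across libraries and r = 0.121 after the subtraction. Gimap1 and Gimap8 had r = 0.187 across libraries and r = -0.503 after the subtraction, and Gimap7 and Gimap8 had r = 0.424 and r = -0.496. These values are descriptions: the libraries share diets and nodes, and the subtraction leaves sex, in which Gimap8 differed from Gimap1 and Gimap7 in direction.

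Among the 12187 other genes with a mean of at least 5 CPM, those whose log2 CPM was most like the members' mean across the 50 libraries were the ADP-ribosyltransferase gene Art2b (r = 0.878), Stat4 (r = 0.844), Vpreb3 (r = 0.840), Gm57204 (r = 0.838) and Stbd1 (r = 0.827), followed by Nop58, Art2a, Snx22, Ryr1 and Adgre5 (r = 0.823 to 0.807). Art2b, Art2a, Gm57204, Stbd1, Snx22 and Adgre5 were also among the 17 genes called lower in all 5 nodes. The members' mean was itself lower on the deficient diet, so this overlap was largely fixed by the measure and is no separate result. After subtracting each diet and node mean the most alike were Cd3d, a chain of the T cell receptor complex (r = 0.714), Ssb (r = 0.705), Coro1a, an actin regulator of lymphocytes (r = 0.705), Pym1 (r = 0.701) and Cdkn2d (r = 0.694), followed by Drg1, Sigirr, Rhoh, Ddx39a and Mir142hg (r = 0.691 to 0.684). The subtraction leaves sex here too, and what these genes share with the members was not tested.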

How the data were processed

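Bulk polyA RNA of 50 mouse lymph node libraries was analysed from a table of estimated counts per gene that the authors deposited. Kallisto, edgeR and limma are named in the submitters' processing notes, as are the builds GRCm39 and mm10 with no role stated; the sources used here give no versions, strand setting or annotation. The label of each deficient column includes "3rd", which no source explains. Of the nonzero values, 0.122% were whole numbers (within 1e-06), and 379 entries had no gene name.

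Estimated counts were rounded and, in R 4.3.3, genes were kept by filterByExpr (18387), scaled by trimmed mean of M-values and fitted with edgeR 4.0.16 (quasi-likelihood, 1 mean per diet and node plus sex; all 50 libraries; Benjamini-Hochberg over all genes; threshold 0.05). Standard errors are the log2 fold change divided by the root of F. Levels are CPM on effective library sizes. Library totals were 5335369 to 8904722 estimated counts, and intervals cover the spread between libraries only. Alternatives used limma 3.58.1 and DESeq2 1.42.0, other filters, scalings and sample sets. The fit was run on simulated independent libraries, for the duodenal diet and the deficient gut-draining against inguinal comparisons alone. Those libraries held no sex effect and no shared mice, so they do not show how the fit handles either. Gene positions, lengths and shared 31-base words came from GENCODE M21 (GRCm38) and promoters from RefSeq (GRCm38.p6).

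Members and gene lists were chosen with earlier results of these data known. Named were all members, the genes within 250 kb, of each list up to 4 genes (lowest adjusted p), and the 10 genes most like the members (mean of at least 5 CPM) with and without group means. Lists covered T, naive T, B, NK and plasma cells, macrophages, blood and lymphatic endothelium, fibroblasts, pancreas, apoptosis and autophagy partners and immunity-related GTPases. Figures were drawn with matplotlib 3.10.9.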

Additional observations from a re-analysis of the deposited data

Results flagged for a closer look

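In 5 of the 80 groups of 5 libraries examined (8 Gimap genes in 10 diet and node groups), 1 library stood apart from the other 4 by more than Dixon's criterion allows; chance flags about 1 group in 20. Gimap1 stood at 240 CPM in deficient duodenal replicate 1, against 201 to 209 CPM in the other 4. Gimap5 stood at 82.3 CPM in deficient inguinal replicate 1, against 66.3 to 69.2 CPM, and at 113 CPM in sufficient colonic replicate 5, a male library, against 79.0 to 85.5 CPM. Gimap6 stood at 360 CPM in sufficient colonic replicate 1, a female library below the other 4 at 382 to 389 CPM. Gimap8 stood at 250 CPM in deficient colonic replicate 5, against 191 to 206 CPM in the other 4. For Gimap7, Gimap3, Gimap4 and Gimap9 no library met the criterion. None of the 24 tests of a difference between diet effects in different nodes passed for any Gimap gene.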

How the results depend on the processing

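No fold change of a Gimap gene that passed the test changed sign under any of the alternatives run. Gimap7 was called lower in all 5 diet comparisons under each of 22 alternatives. The number of Gimap genes called under the diet moved when only the 10 libraries of a node were fitted, to 3 in duodenal, 3 in jejunal, 2 in ileal, 1 in colonic and 3 in inguinal nodes; with female libraries only it was 4 in duodenal and 3 in each other node, and without the libraries of low Gm19220 it was 3 in inguinal nodes. Gut-draining against inguinal nodes on the sufficient diet gave 1 call with no filter on low counts, 1 with no sex term and 0 with female libraries only. On the sufficient diet, duodenal set against ileal gave 0 calls with no filter, with female libraries only and with only the libraries compared. Leaving out 1 replicate number of a diet at a time gave 5 calls in duodenal, 3 to 4 in jejunal, 3 to 4 in ileal, 3 to 5 in colonic and 3 to 5 in inguinal nodes, 1 to 2 in gut-draining against inguinal nodes on the sufficient and 0 to 1 on the deficient diet, 0 to 1 in small intestinal against colonic and 0 to 1 when sufficient duodenal were set against sufficient ileal nodes, and 0 to 4 for sex. DESeq2 and limma-voom gave the same number of calls as edgeR in all 15 comparisons. Where calls were lost the cause was not tested; a fit of 1 node has fewer samples by construction. Over all genes, the number called in inguinal nodes was 245 by DESeq2 and 154 by edgeR, and with only the libraries compared 1.81% of genes were called in duodenal, 1.03% in jejunal, 0.637% in ileal, 0.255% in colonic and 0.0983% in inguinal nodes; with female libraries only it was 4.21%, 1.39%, 1.93%, 0.642% and 0.263% in the same order of nodes. With no filter on low counts Gimap6 was called in duodenal nodes alone (adjusted p = 0.27 in jejunal, 0.175 in ileal, 0.1 in colonic and 0.0902 in inguinal nodes).

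Replicate numbers were shared by the diets and nodes, and whether they mark shared mice is not known. Of 100 pairs of same-numbered libraries from different nodes of a diet, 43 deviated together with r above 0.1. The median r was 0.0835 (range -0.223 to 0.394), against a median of -0.0195 for other pairs. These values do not settle whether the libraries are paired. The main fit treated the libraries as unpaired, so its p-values take no account of nodes that may share a mouse. In the sufficient nodes sex followed the number, so the 2 cannot be told apart there. Limma-voom with the number as a replicate block (correlation 0.115) called 5 Gimap genes in duodenal, 4 in jejunal, 4 in ileal, 4 in colonic and 5 in inguinal nodes, 2 for sufficient gut-draining against inguinal and 1 for sufficient duodenal against ileal nodes, 3 for sex and 0 elsewhere. The block ended the Gimap9 call for sex (adjusted p = 0.101) and no other call of a Gimap gene. Depth limits low genes such as Gm28053 more than the members.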

Other observations

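Among the other gene lists, the NK cell genes called were higher on the deficient diet, where the Gimap genes called were lower. Of 8 NK cell genes, 3 were called higher on the deficient diet by edgeR in duodenal, 3 in jejunal, 5 in ileal, 3 in colonic and 1 in inguinal nodes, and 0 were lower, also at an unadjusted p under 0.05. In ileal nodes these included the receptor Klra8 (log2 fold change 2.01 ± 0.35), the transcription factor Eomes (1.28 ± 0.18), the pore-forming Prf1 (1.12 ± 0.15) and Klrd1 (0.74 ± 0.17). The genes of the list not called there had negative values: Gzma (-0.51 ± 0.30), Ncr1 (-0.38 ± 0.30) and Klrb1c (-0.008 ± 0.25). Ncr1 was called in no node, with -0.51 ± 0.32 in duodenal, -0.55 ± 0.31 in jejunal, 0.005 ± 0.32 in colonic and -0.15 ± 0.31 in inguinal nodes. The summed NK cell level averaged 158 ± 23.5 CPM in deficient and 121 ± 20.3 CPM in sufficient libraries (SD, n = 25 each). Of 7 plasma cell genes, 1 was higher in duodenal, 1 in jejunal, 2 in ileal and 3 in colonic nodes, with the secretory chaperone gene Mzb1 higher in all of them (0.64 ± 0.18 to 0.96 ± 0.18), and 0 in inguinal nodes, also at an unadjusted p under 0.05, by edgeR. Of 10 macrophage genes, 4 were lower in ileal nodes (Mrc1 -0.94 ± 0.18, Adgre1 -0.86 ± 0.19, Marco -0.65 ± 0.19 and Csf1r -0.55 ± 0.12), 1 was higher and 1 lower in duodenal, 2 were higher and 1 lower in jejunal, and 0 were called by edgeR in colonic (1 higher and 1 lower at an unadjusted p under 0.05) and inguinal nodes (1 higher). Of 7 lymphatic endothelial genes, 1 was lower in duodenal, 1 in jejunal and 2 in ileal nodes, among them in each node the transcription factor Prox1 (-0.86 ± 0.17 in duodenal, -0.79 ± 0.17 in jejunal and -1.23 ± 0.17 in ileal nodes), with 0 called by edgeR in colonic (2 higher and 1 lower at an unadjusted p under 0.05) and inguinal nodes (0). Of 9 fibroblast genes, 1 was higher and 1 lower in each of duodenal, jejunal and ileal nodes, 1 was higher in inguinal nodes, and 0 were called by edgeR in colonic nodes (2 higher at an unadjusted p under 0.05). Of 13 pancreatic genes, 0 were called in any node by edgeR, with 6 higher in duodenal nodes and 0 elsewhere at an unadjusted p under 0.05.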
